A study of Mus musculus with 12 samples.

Results

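The bone morphogenetic protein (BMP) pathway was followed in the dorsal root ganglia, where the sensory neurons that send axons into the sciatic nerve have their cell bodies. The genes were chosen by symbol: the antagonist Nog, the receptors Bmpr1a, Bmpr1b and Bmpr2, the SMAD genes Smad1, Smad5 and Smad4, and the target genes Id1, Id2 and Id3. All 10 were found among the 23238 gene symbols of the count files, and all 10 had enough counts to be tested. Polyadenylated RNA of ganglia from lumbar levels 3 to 5 was sequenced from C57BL/6 mice at 8 weeks of age, with 3 libraries in each of 4 groups: female sham, female SNI (sciatic nerve injury), male sham and male SNI. The labels name no transgene and no drug, and the type of nerve lesion and the time from surgery to dissection are not stated in the sources used. They also do not say that replicates were separate animals, so p-values measure the spread between libraries, which may be technical.

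In this pathway a BMP ligand is bound outside the cell by antagonists such as noggin, the protein of Nog, or reaches a complex of type I receptors (Bmpr1a, Bmpr1b) and a type II receptor (Bmpr2). The receptors phosphorylate SMAD1, SMAD5 and SMAD9, which join SMAD4, enter the nucleus and switch on target genes, of which the ID genes are the best known. ID proteins lack a DNA-binding region and hold basic helix-loop-helix factors away from DNA. In sensory neurons, BMP signaling through SMAD1 is known for a role in axon growth after peripheral nerve injury.

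After injury, Smad1 rose and Nog and Id2 fell, while the 3 receptors, Smad5, Smad4, Id1 and Id3 did not pass the test. Thus 3 of the 10 genes were called at an adjusted p below 0.05 for injury averaged over the sexes (edgeR's quasi-likelihood test, Benjamini-Hochberg adjustment over 15036 genes), beside 6.52% of all tested genes. The 1 increase stood beside 3.78% of genes called upward and the 2 decreases beside 2.73% called downward. The 10 genes, and the pathway lists below, were chosen with earlier results of these data known, so counts beside these shares are a description. The same 3 genes were those whose 6 SNI libraries and 6 sham libraries did not overlap in CPM (counts scaled to the library total, with TMM factors), which held for 4.83% of tested genes (2.79% with SNI above sham, 2.04% below). The median log2 change was -0.25 over the 10 genes and 0.0031 over all tested genes. Nog rested on 36 to 161 counts per library, Bmpr1b on 21 to 49, Id3 on 168 to 1715 and Smad1 on 497 to 1258. The SE of the averaged log2 change was 0.20 for Nog, 0.28 for Bmpr1b, 0.34 for Id3 and 0.09 for Smad1, so it did not follow the counts alone.

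**Figure D1:**
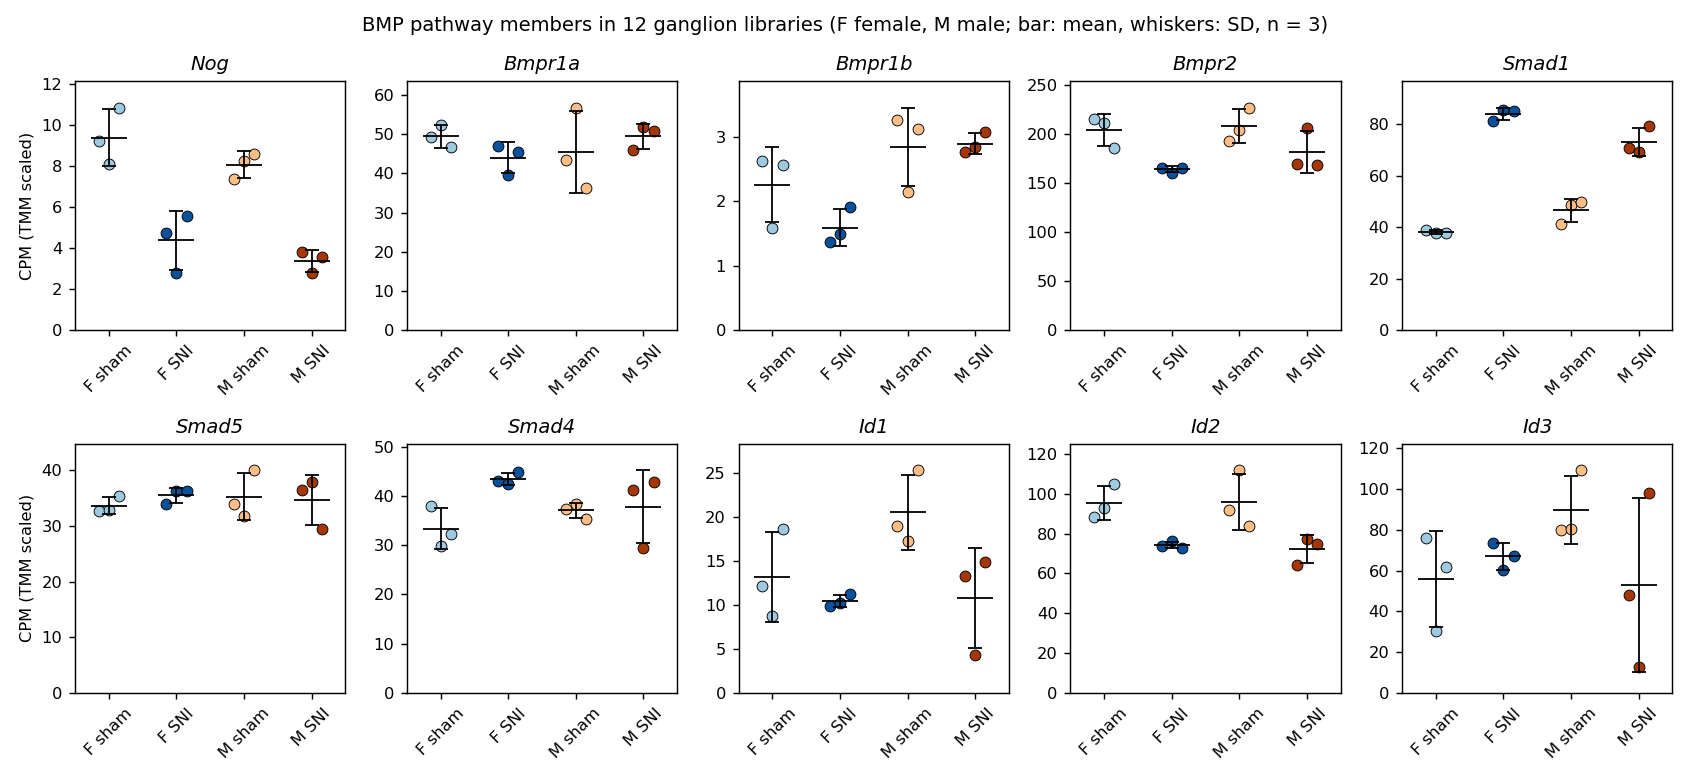
Level of each of the 10 genes in CPM (vertical axes, each from 0) in the 12 libraries, by group. Points are libraries, bars the group mean and whiskers the SD (n = 3). Smad1 lay between 69.1 and 85.5 CPM in the SNI libraries and between 37.6 and 49.7 CPM in the sham libraries, and Nog lay apart in the opposite direction.

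The libraries held 12476606 to 15520746 counts each. Atf3, a transcription factor switched on in sensory neurons by axon damage, lay between 43.6 and 56.7 CPM in the sham libraries and between 275 and 361 CPM in the SNI libraries, so none of the 12 went against its injury label. All 12 sensory neuron markers examined, among them Prph and Isl1, had counts in every library, with a summed level of 18088 to 22497 CPM in sham and 16225 to 22485 CPM after SNI. In females the summed level after SNI (16225 to 17133 CPM) lay below that in sham (18660 to 22497 CPM). In males the ranges overlapped, at 16966 to 22485 CPM after SNI and 18088 to 20138 CPM in sham. On the first principal component Male SNI replicate 2 (99.9) and Female sham replicate 2 (47.5) stood apart from the other libraries (-32.8 to 0.963).

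Noggin, a secreted protein that binds BMPs and keeps them from their receptors, is encoded by Nog (chromosome 11, 89300638 to 89302559, GRCm38.p6). The level of Nog in females was 9.21, 8.09 and 10.8 CPM in sham replicates 1 to 3 and 4.75, 2.79 and 5.58 CPM in SNI replicates 1 to 3. In males it was 7.35, 8.26 and 8.59 CPM in sham and 3.82, 2.76 and 3.56 CPM after SNI. Every SNI library lay below every sham library, in each sex and over both. Averaged over the sexes, Nog fell by 1.18 log2 units with an SE of 0.20 (adjusted p = 0.00308, edgeR), to 0.442 of its sham level. The change in males was -1.25 ± 0.29 (SE, adjusted p = 0.0415, edgeR) and passed the threshold, whereas that in females was -1.10 ± 0.29 (adjusted p = 0.0585) and did not. The difference between the sexes was itself -0.15 ± 0.41 on the log2 scale (adjusted p = 0.909), so the split of calls is not a measured difference. The averaged call held in 12 of 12 fits that each left out 1 library, with log2 changes from -1.28 to -1.06. The male call held in 1 of those 12, without Female SNI replicate 2, and the female call was made in 1 of 12, without Male SNI replicate 2. The male call was also lost by limma with quality weights (adjusted p = 0.0705), with no filter on low counts (0.0516) and in a fit of the 6 male libraries alone (0.168), whereas DESeq2 (adjusted p = 0.0104) and limma (0.00488) called Nog in females. Without both libraries that stood apart, the adjusted p was 0.0224 in females and 0.0579 in males.

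In bulk tissue, fewer cells of a type and less RNA per cell cannot be told apart. Over the same samples, the summed level of 12 macrophage markers was 126 to 198 CPM in sham and 280 to 464 CPM after SNI, and 10 of the 12 rose while none fell (median log2 change 1.22). Of 5 tested neutrophil markers 2 rose, S100a8 and Ltf, and DESeq2 called 3 and limma with quality weights 4, with a summed level of 107 to 219 CPM in sham and 158 to 503 CPM after SNI. Skeletal muscle markers summed to 1435 CPM in the first Male SNI library, against 7.55 to 70.4 CPM elsewhere, with a median log2 change of 2.63 and none of 8 called by edgeR (8 at an unadjusted p below 0.05), 1 by DESeq2 and 0 by limma. Among the 12 sensory neuron markers 3 fell and none rose, namely Rbfox3 by 0.35, Isl1 by 0.32 and Pou4f1 by 0.31 on the log2 scale, whereas DESeq2 called 5 of the 12, all downward, and limma with quality weights 7 downward and 1, Tubb3, upward. Of 10 satellite glia markers only Glul, a glutamine synthetase, rose (0.55 ± 0.07), and the summed level was 5084 to 6780 CPM in sham and 5966 to 9219 CPM after SNI. None of the 10 Schwann cell markers (4084 to 6267 CPM in sham, 4398 to 6057 CPM after SNI), 12 endothelial markers (162 to 216 and 180 to 226 CPM) or 10 fibroblast markers (1639 to 2606 and 1383 to 2861 CPM) passed edgeR's test. In each of these lists 1 gene had an unadjusted p below 0.05, and limma with quality weights called 1 gene, the fibroblast marker Lum, where DESeq2 called 0. None of these markers was at 0 in all libraries of a condition, and their part in the changes of the BMP genes was not tested.

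The type I receptor gene Bmpr1a (chromosome 14, 34411061 to 34503336) was at 49.4, 52.5 and 46.6 CPM in sham females and 47.1, 39.5 and 45.5 CPM in injured females. In males its level was 43.5, 56.8 and 36.2 CPM in sham and 45.9, 51.8 and 50.9 CPM after SNI. The groups overlapped in both sexes, and the averaged log2 change was -0.02 ± 0.11 (SE, adjusted p = 0.96, edgeR). Exons of Bmpr1a overlap the gene Gm17110 on the opposite strand by 290 bases, and since strand handling is not given, reads from the pair could be mixed. The second type I receptor gene, Bmpr1b (chromosome 3, 141837135 to 142169585), gave few counts, at 2.62, 1.59 and 2.56 CPM in sham females and 1.37, 1.495 and 1.91 CPM in injured females. In males Bmpr1b was at 3.27, 2.14 and 3.12 CPM in sham and 2.76, 2.84 and 3.08 CPM after SNI. Its libraries overlapped between conditions in both sexes, with an averaged log2 change of -0.24 ± 0.28 (adjusted p = 0.744, edgeR).

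The type II receptor gene Bmpr2 (chromosome 1, 59764279 to 59878081) encodes the kinase that activates the type I receptors. Its level in females was 215, 211 and 186 CPM in sham and 166, 160.5 and 166 CPM after SNI. In males it was 193, 205 and 227 CPM in sham and 169.7, 207 and 169 CPM after SNI, where replicate 2 reached into the sham range. The averaged log2 change of Bmpr2 was -0.26 ± 0.08 (SE, adjusted p = 0.0947, edgeR) and missed the threshold. Without Male SNI replicate 2 it was -0.30 with an adjusted p of 0.0105, and without Female sham replicate 2 as well it was -0.29 with an adjusted p of 0.0114. No receptor or co-receptor was called among the 12 tested of 13 listed for injury averaged over the sexes, by edgeR or DESeq2, with 2 at an unadjusted p below 0.05, whereas limma with quality weights called 2, Bmpr2 (adjusted p = 0.0132) and Acvr1.

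Smad1 (chromosome 8, 79338395 to 79399428) encodes a receptor-activated SMAD of the BMP branch and was the member that rose. Smad1 was at 39.0, 37.6 and 37.9 CPM in sham females and 81.2, 85.5 and 85.3 CPM in injured females. In males it was at 41.4, 48.6 and 49.7 CPM in sham and 70.7, 69.1 and 79.4 CPM after SNI. All 6 SNI libraries lay above all 6 sham libraries, and the replicates lay close together, with an SD within groups of 0.09 on the log2 scale. The averaged log2 change of Smad1 was 0.89 ± 0.09 (SE, adjusted p = 2.1e-05, edgeR), a 1.86-fold rise, and it was called in 12 of 12 fits that left out 1 library (0.86 to 0.92). It rose in females by 1.14 ± 0.12 (adjusted p = 0.000153, edgeR) and in males by 0.65 ± 0.12 (adjusted p = 0.0117, edgeR), each change being larger than the spread between replicates. In females Smad1 was the 1 called gene of the 10, beside 2.89% of all genes (1.60% upward, 1.29% downward), and in males Smad1 and Nog were the 2 called, beside 2.13% (1.65% upward, 0.486% downward). The male call was lost without Male sham replicate 1 (0.57, adjusted p = 0.0923) and in a fit of the 6 male libraries alone (0.65, adjusted p = 0.178).

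The promoters of Smad1 and Id2, the called genes with an entry among the promoter sequences used, are shown to be set beside the values. That of Id3, the ID gene that varied most between libraries, is shown with them. Each line gives the 250 bases before the start of the gene, 5′ to 3′ on the gene's strand, from RefSeq on GRCm38.p6, at chr8:79399429-79399678 on the minus strand for Smad1, chr12:25096093-25096342 on the minus strand for Id2 and chr4:136143572-136143821 on the plus strand for Id3. Capitals mark letters that match a motif searched on both strands.

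Smad1: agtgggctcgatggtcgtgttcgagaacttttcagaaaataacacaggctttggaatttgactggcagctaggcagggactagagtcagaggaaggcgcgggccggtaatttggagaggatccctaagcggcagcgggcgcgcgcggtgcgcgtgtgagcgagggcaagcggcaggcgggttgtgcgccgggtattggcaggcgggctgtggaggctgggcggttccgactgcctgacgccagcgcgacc
Id2: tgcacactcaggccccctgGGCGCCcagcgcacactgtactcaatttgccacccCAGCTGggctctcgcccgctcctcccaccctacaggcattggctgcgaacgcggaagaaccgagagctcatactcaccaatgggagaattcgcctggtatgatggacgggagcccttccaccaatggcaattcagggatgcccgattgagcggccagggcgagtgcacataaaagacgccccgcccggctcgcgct
Id3: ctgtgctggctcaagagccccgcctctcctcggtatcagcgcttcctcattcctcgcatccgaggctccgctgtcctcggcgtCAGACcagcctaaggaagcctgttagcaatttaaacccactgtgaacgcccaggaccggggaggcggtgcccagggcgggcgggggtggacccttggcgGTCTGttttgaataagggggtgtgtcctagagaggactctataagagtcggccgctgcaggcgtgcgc

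The motifs were GGCGCC, a GC-rich SMAD palindrome found in 9.59% of 32851 promoter windows of this length, CAGAC, the SMAD box, found in 42.2%, CANNTG, the E-box bound by the factors that ID proteins hold back, found in 66.2%, and TGANTCA, an AP-1 site, found in 6.75%. The Id2 window held 1 GGCGCC at -231 to -226 and 1 E-box at -196 to -191, counted from the gene's start. The Id3 window held CAGAC at -167 to -163 and, read on the other strand as GTCTG, at -68 to -64. None of the 4 motifs occurred in the Smad1 window, and no matches overlapped. GGCGCC also occurred in the window of Bmpr1a, that of Bmpr2 and 1 of the 3 of Smad5. CAGAC and the E-box each occurred in windows of Bmpr1b and of Smad5. Bmpr1a, Bmpr1b, Bmpr2 and Smad5 were not called by edgeR. Of the 10 genes, 7 had a promoter entry, and those without one were Nog, Smad4 and Id1.

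Smad5 (chromosome 13, 56703010 to 56742378), a receptor-activated SMAD like Smad1, was at 32.7, 32.8 and 35.4 CPM in sham females and 34.0, 36.2 and 36.2 CPM in injured females. In males its level was 33.9, 31.8 and 40.0 CPM in sham and 36.4, 37.9 and 29.5 CPM after SNI. The groups overlapped and the averaged log2 change was 0.03 ± 0.10 (adjusted p = 0.95, edgeR). Smad5 shares 100 exon bases with Gm27301, which its counts could include. Smad4 (chromosome 18, 73634790 to 73703791), the partner shared by the BMP and TGF-beta branches, was at 37.9, 29.9 and 32.3 CPM in sham females and 43.0, 42.5 and 44.8 CPM in injured females. In males it was at 37.4, 38.4 and 35.3 CPM in sham and 41.3, 29.3 and 42.8 CPM after SNI. Over both sexes the SNI and sham libraries of Smad4 overlapped, and Male SNI replicate 2 was the lowest. The averaged log2 change of Smad4 was 0.21 ± 0.11 (adjusted p = 0.381, edgeR), and that in females 0.38 ± 0.16 (adjusted p = 0.275). Limma with quality weights called Smad4 in females (0.39, adjusted p = 0.0423). Without Male SNI replicate 2 the averaged change was 0.29 (adjusted p = 0.068).

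Smad9, the remaining BMP-activated SMAD gene, which is not among the 10, fell by 0.73 log2 units with an SE of 0.16 (adjusted p = 0.0122, edgeR). Its level was 19.8 to 23.6 CPM in sham females and 13.1 to 15.9 CPM in injured females, and 22.5 to 24.6 CPM and 7.99 to 15.9 CPM in males. As a description, Smad1 made up 40.0% to 42.6% of the summed counts of Smad1, Smad5 and Smad9 in female sham and 61.9% to 63.4% in female SNI libraries. In males the share of Smad1 was 41.7% to 46.2% in sham and 58.8% to 63.6% after SNI. The share of Smad9 lay between 20.1% and 25.1% in sham and between 6.94% and 12.7% after SNI, again without overlap. These are shares of 3′ end counts within a library, and no test was made on them.

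**Figure D2:**
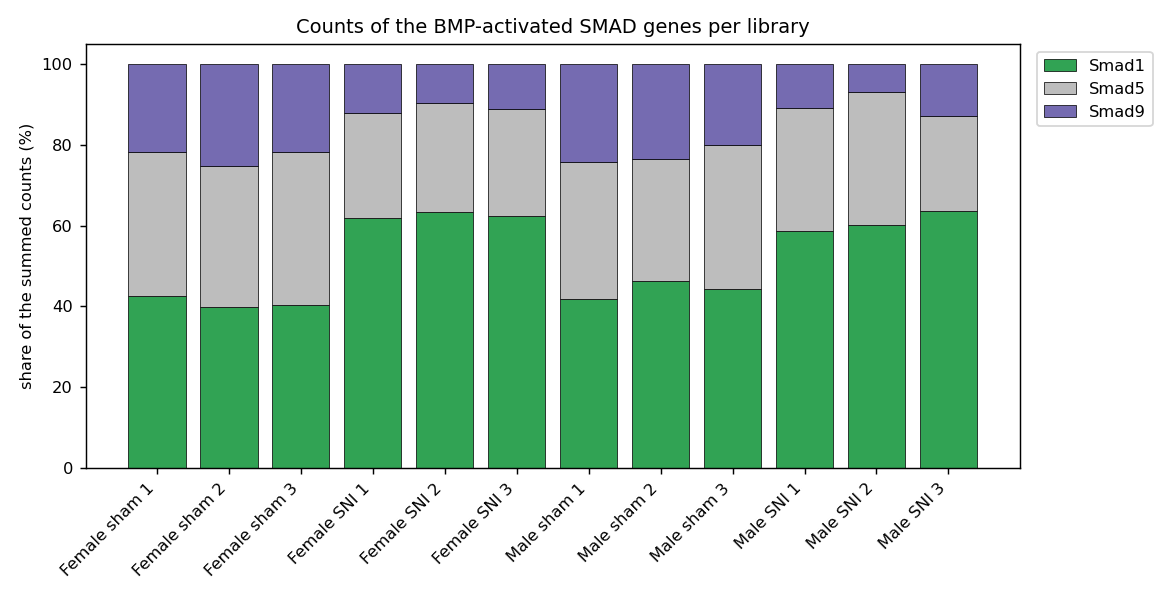
Share of the summed counts of Smad1, Smad5 and Smad9 taken by each gene (vertical axis, %) in each of the 12 libraries. The Smad1 part of the bars was 40.0% to 46.2% in the 6 sham libraries and 58.8% to 63.6% in the 6 SNI libraries, and the Smad9 part was smaller after SNI.

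Id2 (chromosome 12, 25093799 to 25096092), the called ID gene, was at 88.6, 92.9 and 105 CPM in sham females and 73.8, 76.1 and 72.8 CPM in injured females. In males it was at 92.0, 112 and 84.0 CPM in sham and 64.4, 77.5 and 74.9 CPM after SNI. The SNI libraries lay below the sham libraries in each sex, by less than for Nog. Averaged over the sexes, Id2 fell by 0.39 log2 units with an SE of 0.09 (adjusted p = 0.0252, edgeR). The call held in 5 of 12 fits that left out 1 library: the adjusted p was 0.0542 to 0.0798 when the library left out was any 1 of Female SNI, the third of Female sham, the first of Male SNI, or replicate 1 or 2 of Male sham, with log2 changes of -0.40 to -0.32. In neither sex alone did it pass the threshold by edgeR, with -0.36 ± 0.13 in females (adjusted p = 0.195) and -0.41 ± 0.13 in males (adjusted p = 0.16). Limma with quality weights called Id2 in both, with -0.41 in females (adjusted p = 0.0289) and -0.49 in males (adjusted p = 0.0341).

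Id1 (chromosome 2, 152736251 to 152737410), a target that responds to BMP in many cell types, was at 12.1, 8.70 and 18.7 CPM in sham females and 9.82, 10.3 and 11.2 CPM in injured females. In males it was at 18.9, 17.3 and 25.3 CPM in sham and 13.2, 4.30 and 14.9 CPM after SNI. Over both sexes the SNI and sham libraries overlapped, and Male SNI replicate 2 was the lowest of all 12. The averaged log2 change of Id1 was -0.63 ± 0.27 (SE, adjusted p = 0.217, edgeR), and it was -0.55 with an adjusted p of 0.0317 without Male SNI replicate 2 and Female sham replicate 2. Id3 (chromosome 4, 136143822 to 136145392) was at 76.1, 30.2 and 61.7 CPM in sham females and 73.5, 60.4 and 67.3 CPM in injured females. In males Id3 was at 79.7, 80.3 and 109 CPM in sham and 48.0, 12.9 and 97.9 CPM after SNI. The groups overlapped in both sexes, and the averaged log2 change was -0.25 ± 0.34 (adjusted p = 0.789, edgeR), -0.01 without Male SNI replicate 2, -0.16 without both libraries that stood apart and -0.65 (adjusted p = 0.211) without Male SNI replicate 3. Those 2 fits without 1 library of Male SNI were the ends of the range over 12 such fits, none of which called Id3.

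Id3 and Id1 varied most among the 10 genes within groups, with SDs of 0.83 and 0.58 on the log2 scale, against 0.14 for Id2. In Male SNI replicate 2, the log2 level relative to the mean of the 12 libraries was -1.52 for Id1 and -2.18 for Id3, and in Female sham replicate 2 it was -0.53 and -0.97. Those libraries also had the highest summed sensory neuron markers (22485 and 22497 CPM) and the lowest summed fibroblast markers (1383 and 1639 CPM). Endothelial markers were not low in them, at 219 and 216 CPM, and the summed satellite glia markers were highest in Male SNI replicate 2 (9219 CPM). Apoe, with a mean of 4858 CPM over the 12 libraries, was the largest part of that sum. The sum therefore says little about the other satellite glia markers. Schwann cell markers were at 4398 CPM in Male SNI replicate 2 and 4084 CPM in Female sham replicate 2, the lowest of the 12. Macrophage markers were at 464 and 198 CPM, the highest of the SNI and of the sham libraries. The part of these differences in the ID values was not tested.

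**Figure D3:**
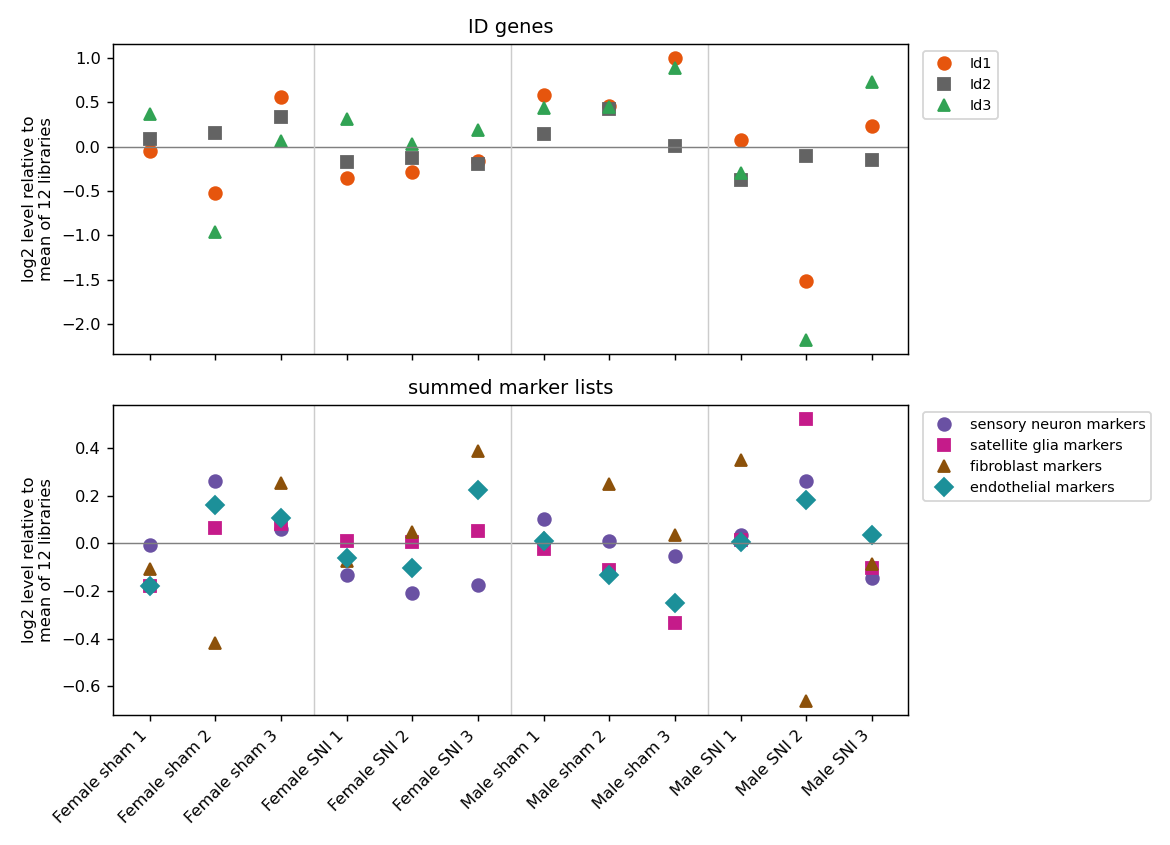
Log2 level of the 3 ID genes (top) and of 4 summed marker lists (bottom) in each library, relative to the mean of the 12 libraries. In Male SNI replicate 2 Id1 (-1.52) and Id3 (-2.18) lay lowest together with the fibroblast markers (-0.66), while Id2 lay between -0.37 and 0.42 in the 12 libraries.

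The sexes were compared because the study was designed with both. No gene of the 15036 was called for the sex by injury interaction (0%, edgeR), with 1100 genes at an unadjusted p below 0.05, and DESeq2 and limma with quality weights also called 0. Of the 10 genes, 1 had an unadjusted p below 0.05: the change of Smad1 in males minus that in females was -0.49 ± 0.17 on the log2 scale (adjusted p = 0.647, edgeR). Id3 had the widest estimate, -1.02 ± 0.69 (adjusted p = 0.673). In sham libraries the level of Smad1 was 46.6 ± 4.50 CPM in males and 38.1 ± 0.723 CPM in females (SD, n = 3), a log2 difference of 0.29 ± 0.12 (adjusted p = 0.938, edgeR). After SNI it was 73.1 ± 5.54 CPM in males and 84.0 ± 2.43 CPM in females, a log2 difference of -0.20 ± 0.12 (adjusted p = 0.882, edgeR). For males against females 0 of the 10 genes were called in sham or after injury, beside 0.0399% of all genes each. In each, 1 of the 10 was at an unadjusted p below 0.05, Smad1 in sham and Bmpr1b after injury (0.86 ± 0.40, adjusted p = 0.882, edgeR). For both comparisons DESeq2 and limma with quality weights also called none of the 10.

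**Figure D4:**
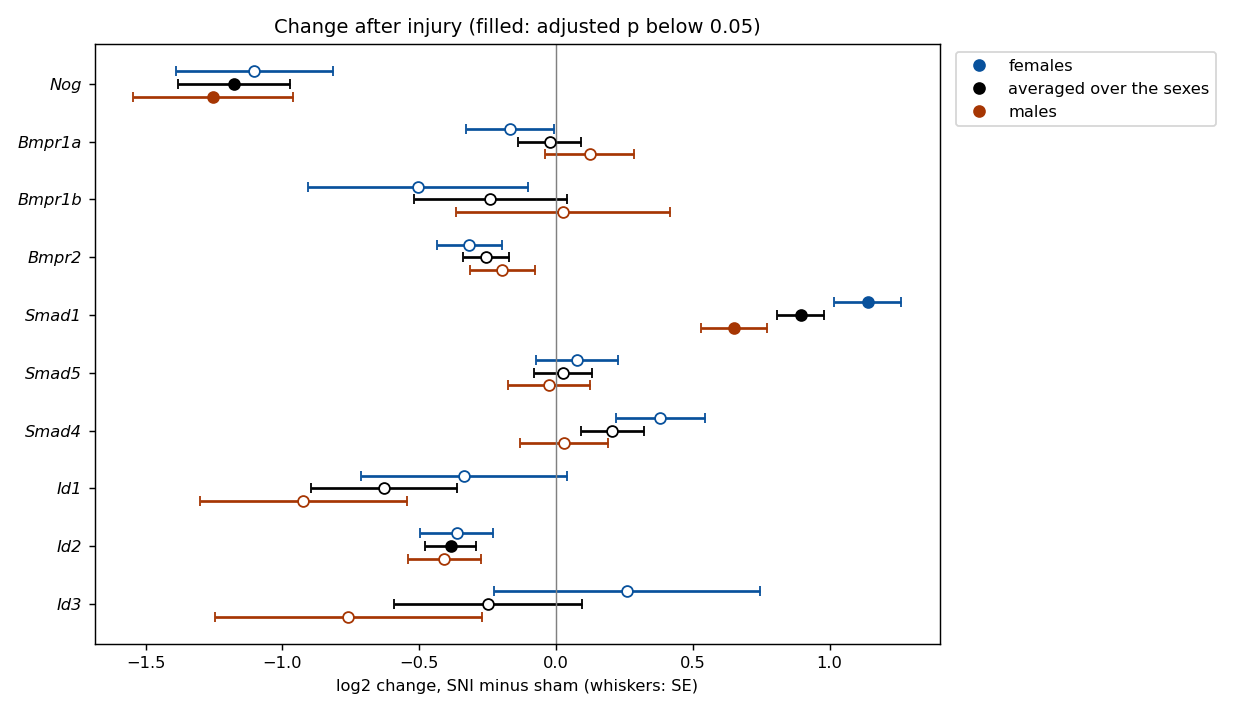
Log2 change after injury, SNI minus sham (horizontal axis), of each gene in females, in males and averaged over the sexes, with SE whiskers from the edgeR fit to 12 libraries. Filled points have an adjusted p below 0.05. Smad1 lies to the right in all 3 comparisons (0.65 to 1.14) and Nog to the left (-1.25 to -1.10).

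Around these genes, 80 other genes of the BMP and TGF-beta pathways were listed and 64 were tested; 4 rose and 3 fell, with a median log2 change of 0.02, beside the 3.78% and 2.73% of all genes. None of 6 tested ligands of 13 listed was called by edgeR, DESeq2 or limma, nor was any at an unadjusted p below 0.05. Bmp4, the ligand with the most counts, was at 4.46 to 8.96 CPM in sham females and 3.51 to 6.02 CPM in injured females, and at 4.01 to 5.73 CPM in sham males and 4.45 to 7.05 CPM in injured males (averaged log2 change -0.04, adjusted p = 0.972, edgeR). The log2 change was -0.32 in females and 0.24 in males, neither called, and its exons share 89 bases with Gm15217 on the opposite strand. Among 14 tested antagonists and extracellular modulators of 18 listed, 1 rose and 3 fell by edgeR, Nog included. Fst, which encodes follistatin, a binder of activins and of some BMPs, lay between 1.95 and 8.17 CPM in sham and between 7.30 and 43.3 CPM after SNI. It rose by 2.01 ± 0.42 on the log2 scale (adjusted p = 0.0103, edgeR), with the highest value in Male SNI replicate 3, and a female sham library lay above the lowest SNI library. In neither sex alone was Fst called by edgeR (adjusted p = 0.149 in females and 0.0786 in males). Exons of Fst share 115 bases with Gm47040 on the opposite strand.

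The other called modulators were Crim1, which encodes a membrane protein that binds BMPs, and Htra1, a secreted protease that acts on TGF-beta family signaling. Htra1 fell by 0.39 (SE 0.09, adjusted p = 0.0149, edgeR), with 94.5 ± 5.83 CPM in sham females, 66.0 ± 4.38 in injured females, 91.9 ± 4.61 in sham males and 76.4 ± 9.60 in injured males (SD), and the call was lost when replicate 1 of Female SNI or of Male sham was left out (-0.37 in both fits). Crim1 fell by 0.56 (SE 0.14, adjusted p = 0.0286, edgeR), with 34.5 ± 2.76 CPM in sham females, 26.9 ± 3.09 in injured females, 37.6 ± 1.95 in sham males and 22.1 ± 6.58 in injured males (SD). It is uncertain, because its exons share 123 bases with Fez2 on the opposite strand and the call was lost in 8 of 12 fits without 1 library (-0.57 to -0.52). In those fits the library left out was replicate 2 or 3 of Female SNI, 1 or 3 of Female sham, 1 of Male SNI or any of Male sham. Crim1 was called in neither sex alone by edgeR (adjusted p = 0.445 in females and 0.0707 in males). Fstl1, the non-member modulator with the most counts, was at 3351 ± 114 CPM in sham females and 2673 ± 51.4 CPM in injured females, at 2906 ± 434 and 2756 ± 203 CPM in males, and did not pass the test (averaged log2 change -0.20, adjusted p = 0.215, edgeR).

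In the TGF-beta and activin branch 3 of 10 tested genes of 12 listed rose and none fell, beside 3.78% and 2.73% of all genes, and DESeq2 and limma with quality weights called the same 3. Inhbb, the activin beta B subunit, was at 10.2 ± 0.831 CPM in sham females and 21.8 ± 5.03 CPM in injured females, and at 9.32 ± 3.26 and 19.8 ± 2.31 CPM in males. It rose by 1.09 ± 0.19 on the log2 scale (adjusted p = 0.00258, edgeR). Acvr1c, a type I receptor of that branch, was at 0 to 1.57 CPM in sham females and 5.43 to 8.39 CPM in injured females, and at 0.765 to 1.59 and 1.69 to 7.67 CPM in males. It rose by 2.45 ± 0.54 (adjusted p = 0.0143, edgeR), from few counts, and shares 168 exon bases with Gm13544, which was near 0 (0.018 CPM). Acvr1c was called in neither sex alone by edgeR (adjusted p = 0.0538 in females and 0.27 in males). Tgfbr2, the type II TGF-beta receptor, rose by 0.79 ± 0.22 (adjusted p = 0.0458, edgeR), with 5.89 ± 2.004 CPM in sham females, 11.5 ± 0.675 in injured females, 7.73 ± 2.06 in sham males and 11.8 ± 3.82 in injured males (SD), and the call was lost with library totals only and in 8 of 12 fits without 1 library (0.65 to 0.82). In those fits the library left out was any replicate of Female SNI, 2 or 3 of Female sham, 3 of Male SNI, or 2 or 3 of Male sham. Tgfbr2 was called in neither sex alone by edgeR (adjusted p = 0.135 in females and 0.379 in males).

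Of 17 SMAD genes and regulators tested, Smad1 rose and Smad9 fell, and Ppm1a, a phosphatase that acts on SMADs, was at 267 ± 12.7 CPM in sham females and 249 ± 5.52 CPM in injured females, and at 259.7 ± 18.0 and 276 ± 27.3 CPM in sham and injured males (averaged log2 change -0.01, adjusted p = 0.985, edgeR). Among 16 tested ID genes and other targets of 18 listed, edgeR and DESeq2 called the same 2, Id2 and Smad9, both downward, with 5 at an unadjusted p below 0.05. Limma with quality weights called 4, adding Id1 downward and the corepressor gene Tgif1 upward (averaged log2 change 1.06 ± 0.37, adjusted p = 0.121 by edgeR). Junb, the non-member target with the most counts, shares 173 exon bases with Prdx2 and is uncertain (averaged log2 change 0.16, adjusted p = 0.775, edgeR). Neo1, a co-receptor, had a change of -0.01 (adjusted p = 0.984) and Smad2, a SMAD of the TGF-beta branch, 0.26 (adjusted p = 0.253). None of the 3 partner factors of the ID proteins was called by edgeR, with 1 at an unadjusted p below 0.05: Tcf4, which had the most counts, had a log2 change of 0.32 ± 0.10 (adjusted p = 0.067), and DESeq2 and limma called it.

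**Figure D5:**
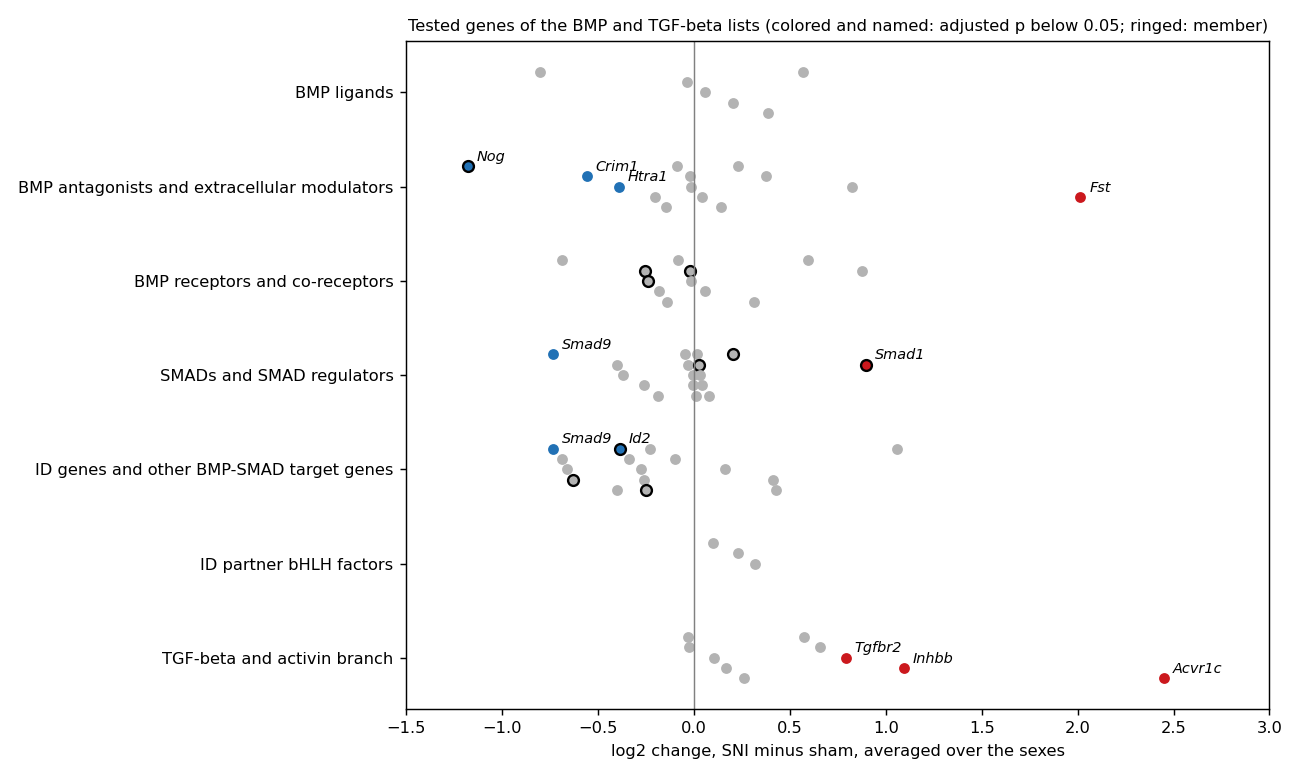
Log2 change after injury averaged over the sexes (horizontal axis) of every tested gene in 7 pathway lists (rows). Coloured, named points have an adjusted p below 0.05, and ringed points are the 10 genes chosen by symbol. Acvr1c (2.45), Fst (2.01) and Inhbb (1.09) lie farthest right and Nog (-1.18) farthest left.

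For the 3 called genes, the genes nearest in pattern were taken by the root mean square difference of centred log2 CPM over the 12 libraries, among 9016 other genes with a mean of at least 10 CPM. Nearest to Nog were Abcd2, Gabrb2 and Lrrc49, at 0.28, 0.29 and 0.34 log2 units. Nearest to Smad1 were Pcnx, Chst2 and Apba2, at 0.15, 0.16 and 0.16, and nearest to Id2 were Zc2hc1a, Bnc2 and Dynll2, at 0.10, 0.12 and 0.12. Since these genes were picked for their pattern over the injury groups, their own changes are a description: -0.87, -0.82 and -0.77 for the genes near Nog, 0.98, 0.997 and 0.91 for those near Smad1, and -0.32, -0.37 and -0.21 for those near Id2.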

How the data were processed

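Messenger RNA was read from its 3′ ends (QuantSeq, single-end, NextSeq, per the labels' protocols) in 12 libraries. Per the file headers, the deposited values are raw counts, in a separate file for each library. The submitters' processing notes name Bowtie2, bedtools and the build mm10 without versions, and strand handling is not stated in the sources used. Of 23282 rows, 44 repeated a symbol and were summed into 23238 symbols.

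Counts were filtered with filterByExpr (minimum count 10, by group), scaled by TMM factors (0.914 to 1.07) and fitted with edgeR 4.0.16 (limma 3.58.1, R 4.3.3) as 1 coefficient per group over 12 libraries. Two-sided quasi-likelihood tests gave 6 contrasts, adjusted by Benjamini-Hochberg over 15036 genes and called below 0.05. The fit was also run on simulated counts that varied less between libraries than these data, so that run does not give its error rate here. Alternatives used DESeq2 1.42.0, limma voom with quality weights, other scaling, filters and sets of libraries. Replicates differed by more than sampling noise (chi-square per gene at least 8.51).

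Replicate numbers were not taken to pair SNI with sham libraries (same-number correlations in the closing section). The 10 genes, the pathway and marker lists and most alternatives were chosen with earlier results of these data known. Named genes were the 10, the called genes of each pathway list and its non-member gene with the most counts, and for each called gene the 3 nearest in pattern. Exon overlaps came from GENCODE on the same build.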

Additional observations from a re-analysis of the deposited data

How the results depend on the processing

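For injury averaged over the sexes, Nog and Smad1 were called under all alternatives tried. The number of genes called (980) became 2008 by limma with quality weights and 1848 without Male SNI replicate 2 and Female sham replicate 2 together, and lay between 626 and 1766 when 1 library was left out. Under both of the first settings 5 of the 10 BMP genes were called in place of 3 (Bmpr2 and Id1 added; 2 to 4 without 1 library), and limma called 12 of the other pathway genes in place of 7 (5 to 10 without 1 library). With library totals only, 4 were called, Bmpr2 being added (adjusted p = 0.0413). In females 435 genes became 777 by DESeq2, 1562 by limma, 905 in a fit of that sex alone, 986 without both libraries and 155 to 1176 without 1 library, and the 1 BMP gene became 2, 4, 1, 2 and 1 to 2. In males 321 genes became 666, 693, 71, 698 and 137 to 601, and the 2 BMP genes became 2, 2, 0, 1 and 0 to 2, and 1 with no filter on low counts. The 4 BMP genes that limma called in females were Smad1, Nog, Smad4 and Id2, and the 2 in males were Smad1 and Id2.

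Same-numbered libraries correlated by -0.04 to 0.01 in females and -0.04 to 0.08 in males between SNI and sham, by -0.01 to 0.05 between Female SNI and Male sham and by 0.10 to 0.43 between Female sham and Male SNI, which no test compared directly. In the latter pair of groups 4 of 6 libraries correlated best with their own number, in the others 0 to 3. With the replicate block 936 genes and 3 BMP genes were called for the average (Tgfbr2, of the other pathway genes, lost its call), and 2 BMP genes in females, where Nog had an adjusted p of 0.0489, and 2 in males.

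The sign turned for values that were not called, none above 0.16 in size. With library totals only these were Smad5 averaged (-0.0060), and Bmpr1b (-0.0460) and Smad4 (-0.0297) in males. By limma they were the interaction of Nog (0.16) and of Bmpr2 (-0.00125). Without both libraries they were Smad5 averaged (-0.0134), Id3 in females (-0.0346) and the interactions of Nog (0.0758), Bmpr2 (-0.00229) and Id1 (0.0232). Without 1 library the averaged change ranged from -0.0909 to 0.0716 for Bmpr1a and -0.0097 to 0.0776 for Smad5, and that of Id3 in females from -0.0396 to 0.54. In males the ranges were -0.00888 to 0.31 for Bmpr1a, -0.142 to 0.134 for Bmpr1b, -0.0959 to 0.0823 for Smad5 and -0.0687 to 0.186 for Smad4. For the interaction they were -0.380 to 0.0684 for Nog, -0.179 to 0.00943 for Smad5 and -0.121 to 0.0771 for Id2. The cause of these shifts was not tested.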
